A study of Mus musculus with 9 samples.

Results

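The p53 gene Trp53 and 31 genes known as its transcriptional targets or partners were followed across 9 expanded mouse macrophage lines. These 32 members, of 24411 gene symbols with a value, were chosen by symbol because earlier results of the same data showed many of them higher in bone marrow lines while Trp53 was lower. The comparisons with bone marrow lines therefore entered the choice, and the members' values there are a description: no p-value is given, and the counts past the thresholds are not evidence about them. The comparison between yolk sac and fetal liver lines did not enter it, and the members were tested there.

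The lines were grown from C57BL/6 mice. YS lines came from yolk sac at E9.5, FL lines from fetal liver at E14.5 and BM lines from adult bone marrow, with 3 lines of each. All were bulk cultures kept for a long time in recombinant human M-CSF at 100 ng/mL, the macrophage growth factor, and no group received another treatment. Each line was a culture from a separate dish or well of cells pooled from several mice, so lines of a group may share a pool, and the spread between them may be smaller than that between mice. Per the study, most adherent BM and FL cells stopped growing and began to die before growing colonies appeared. YS cells did not always stop, gave many colonies sooner, and were started in wells in place of dishes. Tissue, age of the donor and this course of the culture changed together and cannot be told apart.

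p53 is a transcription factor that cells keep at low activity through MDM2, a ubiquitin ligase that marks it for degradation and is itself encoded by a p53 target gene. Stress such as DNA damage stabilises the protein, and its targets then slow the cell cycle, repair DNA, alter metabolism or start cell death. Much of this control acts on the protein, so that the level of Trp53 mRNA does not report p53 activity. In macrophages, whose growth and survival depend on M-CSF, several of the same target genes take part in proliferation and in death after the factor is withdrawn.

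The p53 protein binds DNA at pairs of a palindromic half-site, in which 3 purines, a C, 2 A or T bases, a G and 3 pyrimidines follow each other. The promoters given by RefSeq (mouse build GRCm38.p6, 250 bases before to 50 bases after each start) were searched for a single half-site. The site reads the same on both strands, so that each match counted once. A promoter was found for 25 of the 32 members, and 10 of these 25 held at least 1 half-site (40%), beside 9.55% of all 27025 gene symbols with a promoter, 8.06% of the genes tested below, 8 of 61 other p53 targets and 4 of 33 regulators of p53. The 10 members were Trp53, Ccng1, Ei24, Mdm2, Sesn1, Ckap2, Aen, Ppm1d, Gadd45a and Polk. Not matched to a promoter were Perp, Xpc, Ddb2, Tnfrsf10b, Zmat3, Rrm2b and Trp53inp1. No window of these 10 members held more than 1 exact match. Half-sites with a mismatch were not searched, so that whether a window held a pair was not tested. The stretches around the site in the members of highest mean level are shown because they carry letters that match the half-site. The capitals mark the half-site. Each runs 5′ to 3′ on the strand of the gene, upstream of the start.
Ccng1 (chr11:40755432-40755501, minus strand): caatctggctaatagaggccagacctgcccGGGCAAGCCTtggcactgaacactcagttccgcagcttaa
Mdm2 (chr10:117710905-117710974, minus strand): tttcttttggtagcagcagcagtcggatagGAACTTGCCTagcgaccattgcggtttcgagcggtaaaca
Sesn1 (chr10:41887236-41887305, plus strand): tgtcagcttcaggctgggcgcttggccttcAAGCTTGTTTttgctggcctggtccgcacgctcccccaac
Ckap2 (chr8:22185983-22186052, minus strand): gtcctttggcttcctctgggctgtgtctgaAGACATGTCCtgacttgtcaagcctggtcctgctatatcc
Ppm1d (chr11:85311092-85311161, plus strand): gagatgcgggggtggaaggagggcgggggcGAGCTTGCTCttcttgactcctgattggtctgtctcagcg
In Trp53, Ei24 and Aen the surrounding bases fall in an annotated exon, and only the half-sites are given, GGACTTGCCC, GGGCATGCCC and GGGCTTGTCC. Among these genes the bone marrow lines were highest for Ccng1 and lowest for Sesn1, so that a half-site stood in promoters of members of both directions. A match describes these letters in this window and not binding.

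Levels were given as TPM, a measure of transcript abundance that is scaled to gene length and sums to the same total in each line, with no read depth. Tests used limma on log2(TPM + 1) over the 11753 genes at 1 TPM or more in at least 3 lines, with Benjamini-Hochberg adjustment. Calls followed the study's thresholds, an adjusted p under 0.1 together with a change above 2-fold. Differences on this scale understate the change of low genes. Of the members 31 were tested. Eda2r reached 1 TPM in BM lines only. Outside BM lines, Phlda3 did so in FL line 2 alone, and Tnfrsf10b in YS line 1 and FL line 2 alone. Eda2r, Phlda3 and Tnfrsf10b thus passed the level filter only with the BM lines, where they were highest. Perp, an epithelial adhesion protein with a part in apoptosis, was at 0.24 TPM or less in every line and was not tested.

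The labelled cell type was checked against its markers. The 8 macrophage markers summed to between 3059 and 5891 TPM in the YS group, 6117 and 7209 in the FL group and 5209 and 5819 in the BM group, and each was above 1 TPM in at least 1 line. Of 26 markers of other cells, 19 stayed under 1 TPM in all lines and 5 of these were listed at 0 throughout. The 4 endothelial markers summed to between 5.37 and 56.0 TPM in the YS group, 18.9 and 51.8 in the FL group and 0.08 and 1.7 in the BM group. Kdr made up most of this in FL lines and in YS lines 2 and 3. Pecam1 reached 8.17 TPM in YS line 2, Cdh5 at most 1.38 TPM and Tek at most 0.04 TPM in any line. The erythroid markers reached 215 TPM in BM line 2, nearly all of it Hba-a1. BM line 2 stood apart in another way. There were 45 genes below 0.5 TPM in both other BM lines that reached at least 20 TPM in YS line 2, and the level of these genes in BM line 2 was 14.1% of that in YS line 2 (median). Whether these values have a part in the results was not tested, and counts are given with and without BM line 2.

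Against YS lines, 9 of 31 members were higher in BM lines (Ccng1, Eda2r, Ephx1, Gadd45a, Mdm2, Phlda3, Tnfrsf10b, Trp53inp1 and Zmat3) and 2 were lower (Trp53 and Trp53i11). Among all genes tested, 5.22% were called higher and 7.57% lower. Against FL lines, 8 members were higher (Btg2, Ccng1, Eda2r, Ephx1, Phlda3, Plk2, Tnfrsf10b and Zmat3) and 1, Sesn1, was lower, beside 4.3% and 6.01% of all genes. Since these contrasts entered the choice of members, nothing is read from these counts. The 2 comparisons share the BM lines, and 6 members were called higher in both, Eda2r, Phlda3 and Tnfrsf10b among them. The share of all genes called higher in both was not counted. Without BM line 2, 10 and 8 members were called in place of 11 and 9; Ephx1 was not among those called against YS lines, nor Plk2 among those called against FL lines. The median difference of the 31 members was 0.46 (log2) over YS lines and 0.48 over FL lines, beside -0.11 and -0.09 for all genes.

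**Figure D1:**
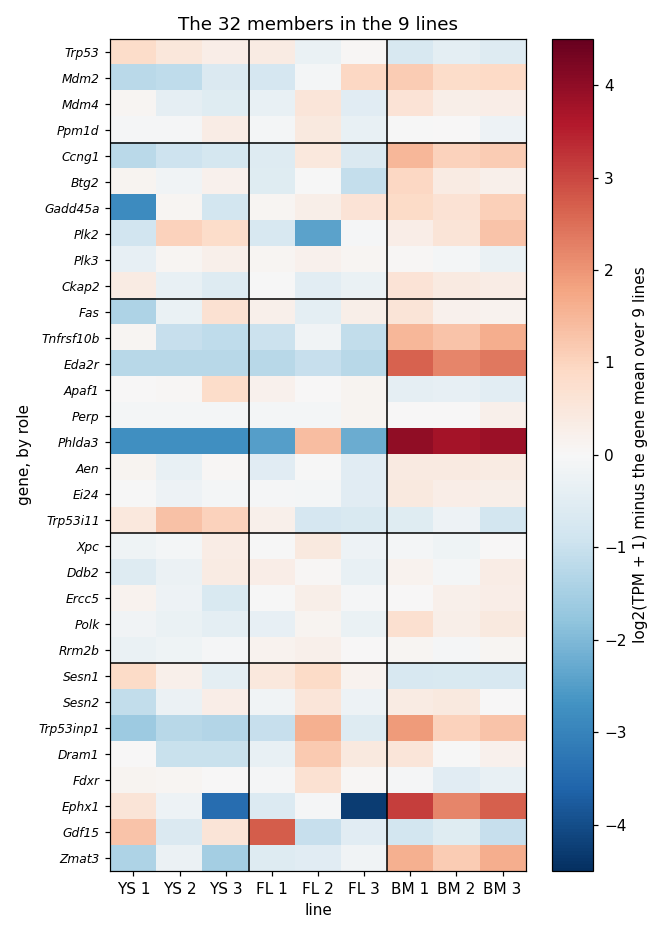
Level of each of the 32 members (rows, grouped by role) in each line (columns), as log2(TPM + 1) minus the mean of that gene over the 9 lines; red is above and blue below that mean. Phlda3, Eda2r, Ephx1 and Zmat3 are red in the 3 BM lines only, apart from Phlda3 in FL line 2 and Ephx1 in YS line 1, Trp53 and Sesn1 are blue in BM lines, and most repair genes are pale.

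Every BM line lay above every YS and FL line for 11 of the 31 members tested (35.5%), as for 10.9% of all genes tested. These were Ccng1, Btg2, Gadd45a, Tnfrsf10b, Eda2r, Phlda3, Aen, Ei24, Polk, Ephx1 and Zmat3. Every BM line lay below every other line for 4 members, Trp53, Apaf1, Sesn1 and Fdxr (12.9%, beside 17.4% of all genes). Without BM line 2 the counts stayed at 11 and 4, with 13.6% and 21.4% of all genes. The BM mean was above both other means for 20 members and below both for 9. The share of all genes was not counted for this order of means, and nothing is read from these 2 counts.

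Among the core genes, Trp53 stood at 266, 214 and 183 TPM in the 3 lines of the YS group, 192, 121 and 154 TPM in the FL group, and 89.4, 110 and 98.0 TPM in the BM group. In these bulk cultures, fewer expressing cells and less RNA per cell cannot be told apart. The lowest value outside the BM group was 121 TPM, so that the BM lines did not overlap with the others, whereas YS and FL lines did. On average BM lines held 99.0 ± 10.1 TPM (SD, n = 3), against 221 ± 41.8 in YS lines and 156 ± 35.7 in FL lines, or 0.45 and 0.64 times those levels. Mdm2 ran the other way: 37.8, 39.9 and 56.7 TPM in the YS group, 52.5, 84.8 and 171 TPM in the FL group, and 200, 159 and 167 TPM in the BM group. FL line 3 lay inside the BM range for Mdm2. The BM mean of Mdm2 was 3.92 times the YS mean and 1.71 times the FL mean. Mdm4, a relative of Mdm2 that binds and restrains p53, was at 19.5 to 30.9 TPM in the YS group, 20.4 to 42.7 in the FL group and 35.1 to 45.4 in the BM group, with FL line 2 inside the BM range. Ppm1d, a phosphatase that acts against the damage kinases, ranged from 13.5 to 23.5 TPM over all lines with the 3 groups overlapping.

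Since both levels are per length and come from the same library, the ratio of Mdm2 to Trp53 does not change when a library is multiplied by 1 factor. It was 0.14, 0.19 and 0.31 in YS lines, 0.27, 0.70 and 1.11 in FL lines, and 2.23, 1.45 and 1.71 in BM lines. BM lines thus held more Mdm2 than Trp53 transcript, YS lines held less, and of the FL lines only FL line 3 was above 1. The ratio of Ccng1 to Trp53 was 0.15 to 0.30 in YS lines, 0.34, 1.10 and 0.40 in FL lines, and 3.01, 1.81 and 2.18 in BM lines.

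**Figure D2:**
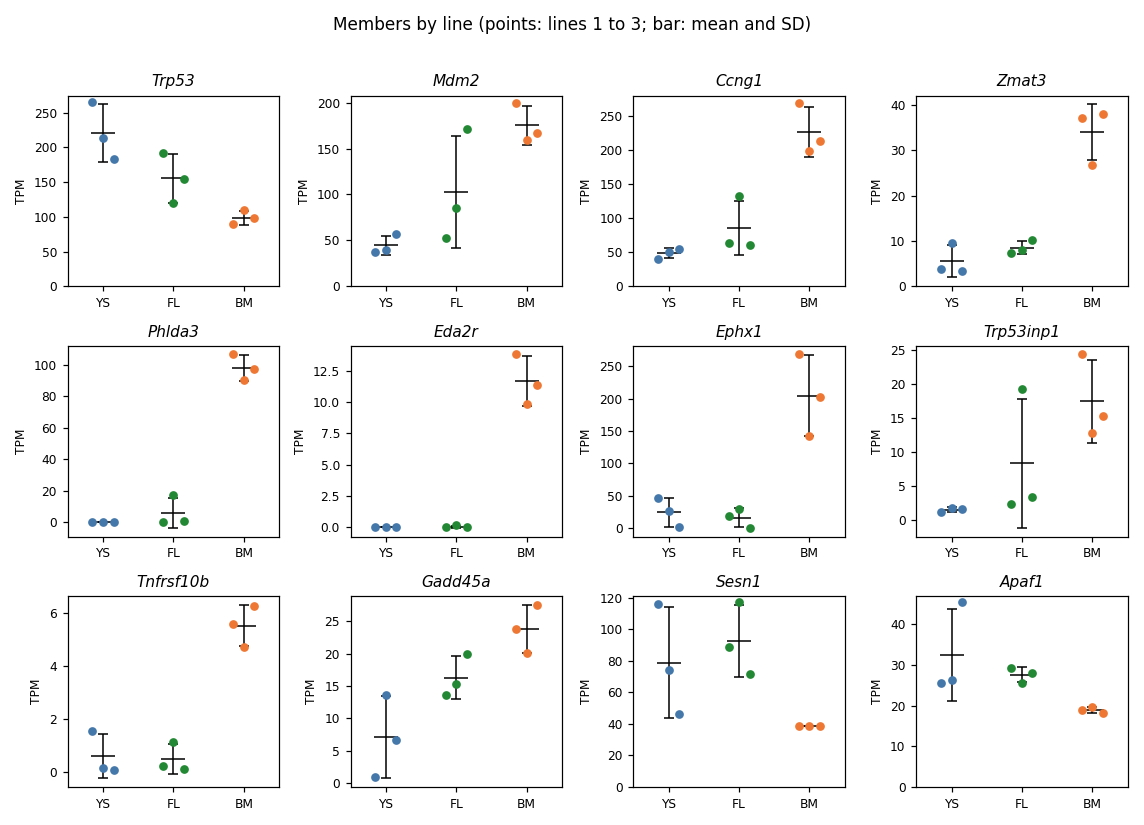
TPM of 12 members in the 3 lines of each group (points, lines 1 to 3 from left to right), with the group mean and SD (bar); each panel has its own linear axis. Trp53 is lowest in BM lines while Mdm2, Ccng1, Zmat3, Phlda3, Eda2r, Ephx1, Tnfrsf10b and Gadd45a have their highest mean there, and Phlda3 and Trp53inp1 show FL line 2 far above FL lines 1 and 3.

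Of 6 members that act on the cell cycle and growth arrest, Ccng1 differed most from YS lines and Plk2 from FL lines. Ccng1, which encodes cyclin G1, was at 40.5, 50.1 and 55.0 TPM in the YS group, 64.3, 132 and 60.9 in the FL group, and 269, 199 and 213 TPM in the BM group. The 3 groups did not overlap, and the BM mean was 4.68 times the YS mean and 2.65 times the FL mean. Gadd45a, a small stress protein that binds PCNA and cyclin-dependent kinase 1, was at 0.93, 13.6 and 6.67 TPM in the YS group, 13.7, 15.3 and 19.9 in the FL group, and 23.8, 20.1 and 27.6 TPM in the BM group. Its lowest BM line lay just above its highest FL line, and YS line 1 was far below all others. Btg2, an antiproliferative factor, was at 5.24 to 7.03 TPM in the YS group, 2.31 to 5.82 in the FL group and 7.10 to 12.3 in the BM group, with the lowest BM line just above the highest YS line.

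The polo-like kinases did not follow this order. Plk2 was at 10.7, 42.8 and 37.4 TPM in the YS group, 12.2, 3.02 and 19.7 in the FL group, and 25.7, 31.3 and 50.9 TPM in the BM group, so that YS and BM lines overlapped, while FL lines lay below every BM line and 2 of the YS lines. Plk3 was between 10.9 and 17.1 TPM in all lines. Ckap2, a protein of the mitotic spindle, was at 33.0 to 63.7 TPM in the YS group, 35.7 to 48.7 in the FL group and 62.3 to 76.3 in the BM group, with YS line 1 inside the BM range.

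Among the 9 death genes, those listed near 0 in YS lines gave the widest differences. Phlda3, a pleckstrin homology domain protein that competes with AKT for membrane lipids, was listed at 0 in all YS lines, while FL lines held 0.23, 16.9 and 0.43 TPM and BM lines 107, 90.0 and 97.5 TPM. Eda2r, a receptor of the TNF receptor family for ectodysplasin A2, was listed at 0 in all YS lines and in FL lines 1 and 3, while FL line 2 held 0.16 TPM and BM lines 13.8, 9.87 and 11.3 TPM. Tnfrsf10b, the mouse death receptor for TRAIL, was at 1.53, 0.14 and 0.06 TPM in the YS group, 0.20, 1.12 and 0.10 in the FL group, and 5.59, 4.70 and 6.27 TPM in the BM group. All 3 genes were separated between BM and other lines, and FL line 2 was the highest FL line in each. A value listed at 0 without read depth is not evidence of no transcript.

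Other death genes differed little or in the opposite direction. Apaf1, the scaffold of the apoptosome, was at 25.5, 26.4 and 45.6 TPM in the YS group, 29.2, 25.5 and 28.0 in the FL group, and 18.9, 19.6 and 18.1 TPM in the BM group, all below the rest. Aen, an apoptosis-enhancing nuclease, was at 53.6 to 55.4 TPM in BM lines against 29.0 to 44.7 in the others, and Ei24, an endoplasmic reticulum protein of autophagy, at 126 to 143 TPM against at most 104. The death receptor Fas was at 2.17 to 12.2 TPM in the YS group, 5.11 to 8.95 in the FL group and 8.13 to 11.3 in the BM group, with overlap between all groups. Trp53i11, a p53-inducible gene of less known function, was at 1.45, 3.41 and 2.66 TPM in the YS group, 1.10, 0.05 and 0.11 in the FL group, and 0.22, 0.53 and 0 TPM in the BM group, so that YS lines were above all others.

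None of the 5 repair and nucleotide supply genes was called in either comparison with BM lines. Xpc and Ddb2, which recognise DNA lesions for nucleotide excision repair, were at 13.9 to 23.0 TPM and 6.36 to 13.2 TPM over all lines, and the excision nuclease Ercc5 was at 5.86 to 12.4 TPM. Polk, a translesion polymerase, was at 8.54 to 10.6 TPM in the YS group, 9.03 to 13.2 in the FL group and 14.8 to 20.4 in the BM group. Rrm2b, the p53-inducible subunit of ribonucleotide reductase, was at 9.67 to 11.6 TPM in the YS group, 12.2 to 14.2 in the FL group and 11.7 to 12.9 in the BM group. Exons of Ddb2 overlap those of Acp2 on the opposite strand, which reached 119 TPM, and the sources used here do not state whether strand entered the counting; Gadd45a, Plk3, Ei24 and Rrm2b have such an overlap too.

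Of the 8 members of stress response and metabolism, 3 were called higher in BM than YS lines (Zmat3, Ephx1 and Trp53inp1), and against FL lines 2 were called higher and Sesn1 lower. Zmat3, an RNA-binding zinc finger protein, was at 3.85, 9.55 and 3.37 TPM in the YS group, 7.40, 7.92 and 10.2 in the FL group, and 37.1, 26.8 and 37.9 TPM in the BM group. BM lines were thus 6.07 times YS lines and 3.99 times FL lines on average, with no overlap. Ephx1, the microsomal epoxide hydrolase of drug metabolism, was at 46.0, 26.1 and 1.95 TPM in the YS group, 19.4, 29.6 and 0.65 in the FL group, and 268, 143 and 203 TPM in the BM group. Its YS and FL lines spread widely, with YS line 3 and FL line 3 far below the other lines of their groups. Trp53inp1, an autophagy and death regulator, was at 1.15, 1.84 and 1.68 TPM in the YS group, 2.31, 19.3 and 3.48 in the FL group, and 24.3, 12.7 and 15.3 TPM in the BM group. FL line 2 was above 2 BM lines for Trp53inp1.

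The sestrins, which restrain mTORC1 under stress, went separate ways. Sesn1 was at 116, 74.4 and 46.2 TPM in the YS group, 88.5, 117 and 71.7 in the FL group, and 38.5, 38.9 and 38.5 TPM in the BM group, below every other line. Sesn2 was at 6.32 to 18.5 TPM in the YS group, 12.5 to 22.1 in the FL group and 15.0 to 20.3 in the BM group, with overlap. Dram1, a lysosomal membrane protein of autophagy, was highest in FL line 2 (33.0 TPM) and at 6.42 to 21.2 TPM elsewhere, and Fdxr, the mitochondrial ferredoxin reductase, at 11.3 to 15.7 TPM in BM lines against 15.8 to 26.7 TPM in the others. Gdf15, a secreted stress cytokine often used as a p53 readout, was at 4.00, 0.29 and 2.04 TPM in the YS group, 12.4, 0 and 0.44 in the FL group, and 0.14, 0.40 and 0 TPM in the BM group, so that BM lines were not the highest.

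Between YS and FL lines, which the choice of members had not used, 1 of 31 members was called. Trp53i11 was higher in YS lines by 1.34 (log2, SE 0.36, limma adjusted p = 0.0682), and its 3 YS values all exceeded its 3 FL values. None was called lower in YS lines, while 1.95% of all genes were called higher and 1.85% lower. The call rests on values near 1 TPM and was lost under 12 of 19 alternatives. Outside the YS group, Trp53i11 reached 1 TPM only in FL line 1, at 1.10 TPM. It thus met the level filter only with the YS lines, where it was called higher. Trp53 was 1.42 times higher in YS lines on average, a difference of 0.51 (SE 0.19, limma adjusted p = 0.145) that did not pass. At an unadjusted p under 0.05 stood 8 of the 31 members (25.8%), beside 25.7% of all genes, so that this share was near the background. They were Trp53 and Trp53i11, higher in YS lines, and Ccng1, Dram1, Gadd45a, Mdm2, Rrm2b and Trp53inp1, lower. The largest of these 6 differences were those of Gadd45a, at -1.51 (SE 0.61, limma adjusted p = 0.167), and Trp53inp1, at -1.40 (SE 0.60, limma adjusted p = 0.186). Mdm2 differed by -1.04 (SE 0.37, limma adjusted p = 0.127) and Ccng1 by -0.73 (SE 0.28, limma adjusted p = 0.157), and neither passed. Without FL line 1, 4 members were called (Trp53i11 higher in YS lines, Dram1, Mdm2 and Trp53inp1 lower), and without YS line 1 (Trp53i11 and Dram1) or YS line 2 (Gadd45a and Zmat3, lower in YS lines), 2 each. Without any 1 of the 6 remaining lines, BM lines included, the count was 0. The median difference of the members was -0.15, beside 0.02 for all genes.

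**Figure D3:**
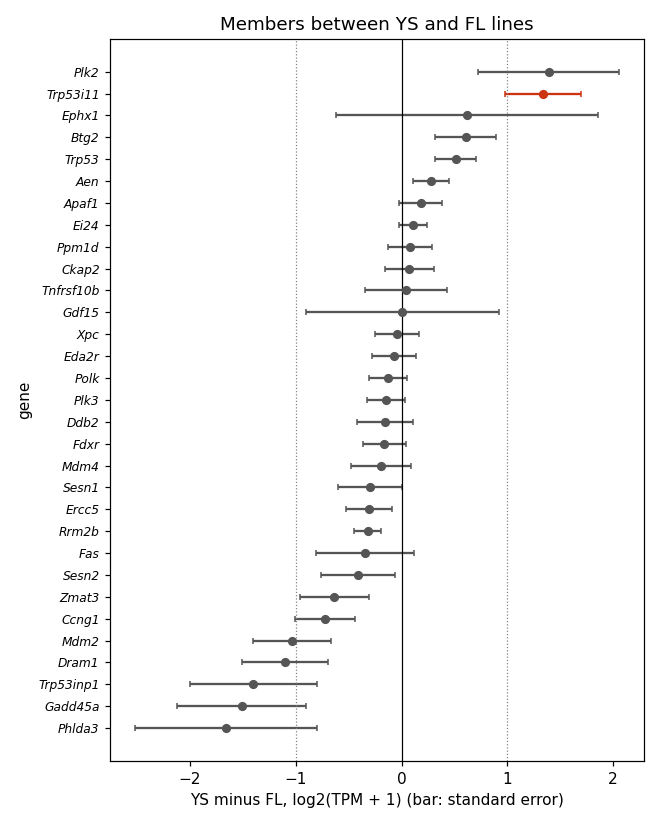
Difference between YS and FL lines for each of the 31 tested members, in log2(TPM + 1), with its standard error (bars); positive values are higher in YS lines, and dotted lines mark a 2-fold change. Only Trp53i11 (red, 1.34) was called; Phlda3, Gadd45a, Trp53inp1, Dram1 and Mdm2 lie past -1, and Plk2, at 1.39, past 1, and none of these was called.

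FL lines varied among themselves. Trp53 aside, FL line 2 was the highest FL line in 19 of 30 members (63.3%), against 34.1% of all genes tested and 27 of 59 other p53 targets. Phlda3 was 16.9 TPM there against 0.23 and 0.43, and Trp53inp1 19.3 against 2.31 and 3.48, while Plk2, at 3.02 TPM, was the lowest FL value. The mean level of the 30 members over all tested genes, in log2(TPM + 1), was -1.24, -1.17 and -1.19 in the YS group, -1.05, -0.68 and -1.19 in the FL group, and 0.04, -0.22 and -0.09 in the BM group. YS lines were close together, and FL lines 1 and 2 stood between the YS and BM lines. The median SD of a member was 0.37 among YS lines, 0.39 among FL lines and 0.22 among BM lines, against 0.28, 0.18 and 0.11 for all genes.

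**Figure D4:**
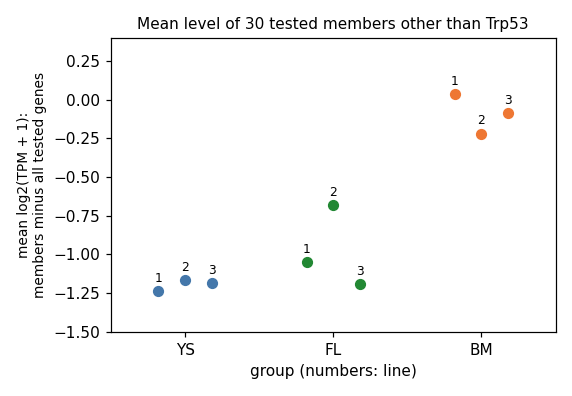
Mean log2(TPM + 1) of the 30 tested members other than Trp53 minus the mean of all tested genes, for each line (points, numbered by line). YS lines lie between -1.24 and -1.17, BM lines between -0.22 and 0.04, and FL line 2, at -0.68, lies apart from FL lines 1 and 3.

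The pathway was followed further in 72 other p53 target genes and 38 regulators of p53. These lists were written from general knowledge, but with earlier results of these data known. Their counts and p-values are therefore no independent check on the members. Of 59 other targets tested, 13 were called higher and 6 lower in BM than YS lines, and 11 higher and 6 lower in BM than FL lines. Of all genes, 5.22% and 7.57% were called in those directions against YS lines and 4.3% and 6.01% against FL lines. Every BM line exceeded every other line for 24 of the 59 targets (40.7%, beside 10.9% of all genes) and was below every other line for 6 (10.2%, beside 17.4%). Without BM line 2, 12 were called higher and 4 lower against YS lines, beside 597 and 904 of 11753 genes. Against FL lines these were 10 and 5, beside 466 and 711 genes. The counts above and below every other line were then 24 (40.7%, beside 13.6% of all genes) and 8 (13.6%, beside 21.4%). Of the targets, 10 were called higher against both groups and 3 lower against both, Cdkn1a, Cyfip2 and Scn3b. Cyfip2 and Scn3b were named after their values were seen. The 2 comparisons share the BM lines, and the share of all genes called in both was not counted, so that nothing is read from these counts. The median differences of the 59 targets were 0.36 and 0.25 (log2), beside -0.11 and -0.09 for all genes.

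Cdkn1a, which encodes the cell cycle inhibitor p21 and is the classical p53 target, went against the direction of Mdm2 and Ccng1. It was at 24.0, 81.4 and 83.5 TPM in the YS group, at 69.7, 466 and 388 TPM in the FL group, and was listed at 0 in BM lines 1 and 3 but reached 11.5 TPM in BM line 2. Every BM line was thus below every YS and FL line. Cdkn1a was lower in BM lines than in YS lines (log2 difference -4.59, SE 1.09, limma adjusted p = 0.0174) and than in FL lines (-6.66, SE 1.09, limma adjusted p = 0.0044), sizes that depend on the pseudocount because of the values at 0. They ranged from -6.81 to -3.24 and from -8.90 to -5.25 over 20 alternatives, all of which called the gene. Cdkn1a belongs to the 45 genes described above, and BM line 2 held 14.1% of its YS line 2 level. Between YS and FL lines it differed by -2.07 (SE 1.09, limma adjusted p = 0.267).

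Among targets that act on mitochondrial apoptosis, Pmaip1, which encodes the BH3 protein NOXA, was at 41.6, 57.1 and 41.1 TPM in the YS group, 7.51, 3.30 and 5.85 in the FL group, and 111, 76.6 and 94.6 TPM in the BM group. The 3 groups were separated, with FL lines lowest. Pmaip1 rose by 3.90 from FL to BM lines (SE 0.26, limma adjusted p = 0.000123) and was 2.90 higher in YS than FL lines (SE 0.26, limma adjusted p = 0.0025). It was 1.00 higher in BM than YS lines (SE 0.26, limma adjusted p = 0.0243), at the edge of the 2-fold threshold and called under 15 of 20 alternatives. Without YS line 1, YS line 3, BM line 1 or BM line 3 it was 0.87 to 0.99 and no longer past 2-fold. Bax, the pore-forming effector of apoptosis, was at 239 to 283 TPM in the YS group, 261 to 409 in the FL group and 465 to 516 in the BM group. Bbc3, which encodes PUMA, was at 11.9 to 18.5 TPM in the YS group, 18.5 to 19.8 in the FL group and 28.2 to 32.2 in the BM group. For both, every BM line was the highest, and the differences of 0.91 and 0.67 for Bax (limma, adjusted p = 0.0069 and 0.0249) and of 0.92 and 0.60 for Bbc3 (limma, adjusted p = 0.0053 and 0.0287) over YS and FL lines stayed under 2-fold. Over YS lines, Bax passed 2-fold after median-of-ratios scaling, at 1.03, and Bbc3 after that scaling or quantile normalization, at 1.03 in each, and without YS line 3, at 1.06.

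**Figure D5:**
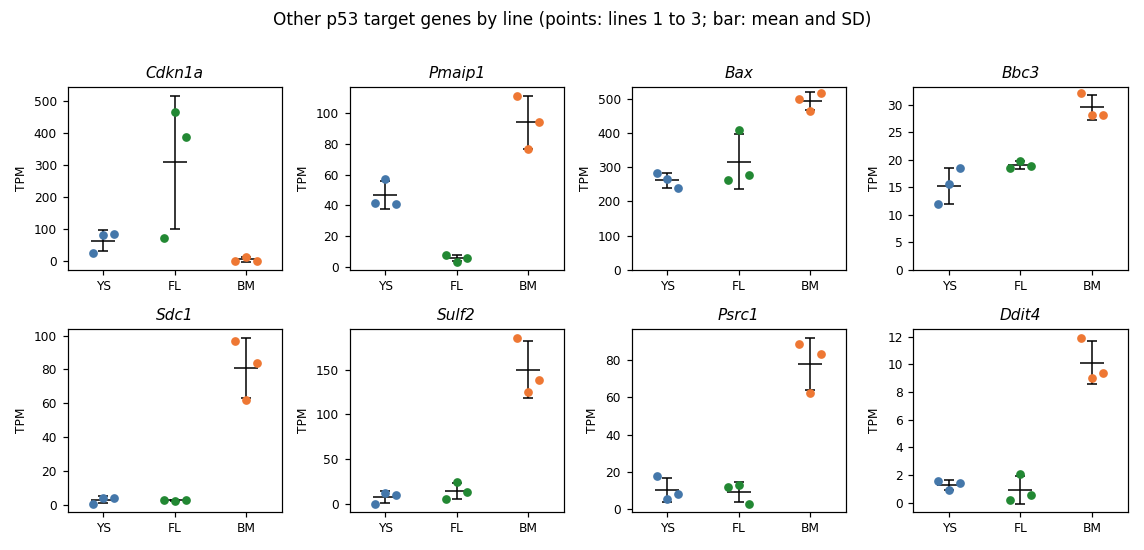
TPM of 8 other p53 target genes in the 3 lines of each group (points, lines 1 to 3 from left to right), with the group mean and SD (bar); each panel has its own linear axis. Cdkn1a is at 0 or 11.5 in BM lines and reaches 466 in FL line 2, Pmaip1 is lowest in FL lines, and the other 6 genes are highest in the 3 BM lines.

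The other called targets with the largest differences were Sulf2, Sdc1, Psrc1, Epha2, Cmbl and Ddit4. Sdc1, the cell surface proteoglycan syndecan 1, was at 0.70 to 4.10 TPM in the YS group, 2.03 to 2.88 in the FL group and 61.6 to 97.1 in the BM group, a rise of 4.51 over each group (SE 0.40, limma adjusted p = 0.000575 over YS lines and 0.000515 over FL lines). Sulf2, an extracellular heparan sulfatase, was at 0 to 12.3, 5.51 to 23.9 and 125 to 186 TPM in YS, FL and BM lines. Psrc1, a microtubule-binding protein, was at 5.75 to 17.9, 3.20 to 13.2 and 62.2 to 88.7 TPM. Each of these 3 genes separated BM lines from the rest. Ddit4, an inhibitor of mTORC1, and Cmbl, a hydrolase, were at 9.05 TPM or more and 16.9 TPM or more in BM lines, against at most 2.08 and 4.90 TPM elsewhere. Epha2, an ephrin receptor, was called against YS lines only, at 2.83 (SE 0.70, limma adjusted p = 0.0195), with 1.76 over FL lines (SE 0.70, limma adjusted p = 0.113). The gap between both is its YS minus FL difference, -1.07 (SE 0.70, limma adjusted p = 0.359), which did not pass. Without YS line 1 or YS line 3, Epha2 was called over FL lines as well (limma adjusted p = 0.0441 and 0.0122).

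The comparison of YS with FL lines called 3 of 59 other targets, 2 higher in YS lines (3.39%) and 1 lower (1.69%). These shares were near those of all genes, 1.95% and 1.85%. The 3 genes were Pmaip1 and Tm7sf3, a membrane protein, both higher in YS lines, and Notch1, the signalling receptor, lower in YS lines. Tm7sf3 reached 7.79, 1.64 and 10.8 TPM in the YS group but no more than 0.59 TPM in any FL or BM line. It thus met the level filter through the YS lines alone, so that its call as higher there is a description. The difference was 2.35 (SE 0.50, limma adjusted p = 0.044). Without FL line 2 or FL line 3 it was 2.26 and 2.52 and missed the threshold (limma adjusted p = 0.122 and 0.104). Notch1 was at 1.24 to 3.40 TPM in the YS group, 9.42 to 13.9 in the FL group and 3.70 to 4.72 in the BM group, with FL lines above all others. It was lower in YS than FL lines (log2 difference -1.97, SE 0.27, limma adjusted p = 0.0128) and in BM than FL lines (-1.34, SE 0.27, limma adjusted p = 0.0097).

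Of 36 regulators tested, which are kinases, ligases, deubiquitinases and partners that act on p53, none was called higher in BM lines. Among all genes, 5.22% were called higher in BM than YS lines. Every BM line was below every other line for 10 regulators (27.8%, beside 17.4% of all genes) and above for 1 (2.78%, beside 10.9%). Called lower in BM than YS lines were 2 regulators (5.56%, beside 7.57% of all genes), a share near the background. These were Daxx, a histone chaperone that joins the MDM2 complex, at 56.8, 70.0 and 103 TPM in YS lines and 22.3, 28.8 and 18.3 TPM in BM lines, and Rybp, a polycomb protein that binds MDM2, at 27.5, 27.9 and 42.3 TPM and 12.8, 13.5 and 11.9 TPM. Daxx fell by 1.67 (SE 0.28, limma adjusted p = 0.0048) and Rybp by 1.26 (SE 0.19, limma adjusted p = 0.0033). Daxx was also called lower against FL lines without FL line 2 (-1.18) or without BM line 2 (-1.12). With limma, 0 regulators were called for BM against FL lines and likewise 0 for YS against FL lines. Of all genes, 4.3% and 6.01% were called higher and lower in BM than FL lines, and 1.95% and 1.85% in YS than FL lines. In these 2 comparisons 10 (27.8%) and 11 (30.6%) regulators had an unadjusted limma p under 0.05, beside 33.6% and 25.7% of all genes. The damage kinases Atm and Chek2 were at 10.8 to 27.4 and 34.8 to 66.7 TPM over all lines, and the deubiquitinase Usp7 at 45.9 to 63.4 TPM. No difference of these 3 with BM lines reached 2-fold.

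Cdkn2a, whose ARF product holds MDM2 away from p53, was at 180, 143 and 92.2 TPM in the YS group, 171, 2.86 and 123 in the FL group, and 49.9, 59.5 and 63.8 TPM in the BM group. A level per gene symbol does not tell the transcripts of the gene apart, so these values are not ARF levels alone. FL line 2 was far below all others, and it was also the FL line in which most members were highest; a relation between these was not tested. BM lines were below every YS line but not every FL line, and the difference from YS lines was -1.20 (SE 1.21, limma adjusted p = 0.483) in the fit with FL line 2. Without FL line 2, Cdkn2a was called lower in BM lines than in YS lines at the same -1.20 (SE 0.25, limma adjusted p = 0.014) and than in FL lines at -1.32 (SE 0.28, limma adjusted p = 0.0215). Of the p53 relatives, Trp63 was listed at 0 in every line and Trp73 at 0.03 TPM or less. Between YS and FL lines Cdkn2a differed by 1.63 (SE 1.21, limma adjusted p = 0.42), and by -0.12 without FL line 2.

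The overall direction of genes depended on scaling. With TPM as deposited, 614 genes were called higher and 890 lower in BM than YS lines, a split that became 763 and 724 after quantile normalization, and the median of all genes moved from -0.11 to 0.01. Against FL lines the split of 505 and 706 became 593 and 592. Under the same scaling, 10 members were called higher and 2 lower against YS lines, and 8 higher and 1 lower against FL lines.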

How the data were processed

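RNA from 9 macrophage lines (3 YS, 3 FL, 3 BM) was sequenced from poly(A) libraries with directional preparation, single reads of 75 nt. The authors deposited a table of TPM per gene symbol, and per the labels the submitters' processing notes name Trim Galore 0.6.6, STAR 2.7.9a and RSEM 1.3.3; the genome build and annotation are not given in the sources used here. No read counts were used, so that depth, and with it the counting error of low values, is unknown. From the TPM, log2(TPM + 1) was fitted with limma 3.58.1 (R 4.3.3) over all 9 lines, with an intensity trend and Benjamini-Hochberg adjustment over 11753 genes at 1 TPM or more in at least 3 lines. Calls needed an adjusted p under 0.1 together with a change above 2-fold. The steps were tested on simulated data. Nothing in the sources says that lines came from separate animals, so p-values measure the spread between these cultures. The members and gene lists were chosen with earlier results of these data known. Named were all members, Cdkn1a, Bax, Bbc3, Pmaip1, Cdkn2a, Atm, Chek2, Usp7, Trp63 and Trp73, and at most 6 called genes of each other list per comparison with the largest difference. Promoter stretches were taken for at most 8 members with a half-site, by mean TPM; sequences and coordinates come from RefSeq, build GRCm38.p6, and exon overlaps from GENCODE M21. Alternatives were 20: other pseudocounts (0.1 and 4), no filter or one of 5 TPM, quantile and median-of-ratios scaling, no trend, only the 6 libraries compared, a replicate block, a rate under 0.05, no fold threshold, and each line left out.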

Additional observations from a re-analysis of the deposited data

How the results depend on the processing

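Depth is unknown for TPM, values near 1 TPM depend on the pseudocount, and each group had 3 lines. Replicate numbers did not pair the samples: the correlation of deviations between same-numbered lines was -0.12 to 0.09 over 9 pairs. Under the replicate block 0 members were called between YS and FL lines in place of 1, with 11 and 9 called against BM lines as before. Members called between YS and FL lines were also 0 with a pseudocount of 0.1 or 4, a filter of 5 TPM, only the 6 libraries compared, or a rate under 0.05; the adjusted p of Trp53i11 ranged from 0.0438 to 0.186 over its alternatives. With no fold threshold, 17 members were called between BM and YS lines and 14 between BM and FL lines, with 35, 30 and 6 other targets (BM against YS, BM against FL, YS against FL) and 16, 7 and 4 regulators, beside 37.9%, 27.6% and 12.8% of all genes (7 and 4 of 36 regulators are 19.4% and 11.1%). With 1 line left out, members called ranged from 9 to 12 (BM against YS), 6 to 9 (BM against FL) and 0 to 4 (YS against FL), other targets from 15 to 19, 12 to 19 and 2 to 6, and regulators from 2 to 3, 0 to 2 and 0 to 1. The count of other targets between YS and FL lines was 6 without YS line 2, YS line 3 or FL line 1, and that of members between BM and FL lines was 6 without BM line 1. Without FL line 2, or without BM line 2, 2 and 1 regulators were called between BM and FL lines; without YS line 2 or FL line 1, 1 was called between YS and FL lines. The BM minus FL difference of Cdkn2a ran from -1.32 (without FL line 2) to 1.42 and its YS minus FL difference from -0.12 to 2.62. For 15 members the sign of the uncalled YS minus FL difference turned when a line was left out: Apaf1 (-0.082 to 0.32), Ckap2 (-0.20 to 0.26), Ddb2 (-0.42 to 0.054), Ei24 (-0.031 to 0.19), Ephx1 (-0.68 to 1.82), Fas (-0.85 to 0.18), Fdxr (-0.30 to 0.059), Gdf15 (-0.71 to 1.17), Mdm4 (-0.40 to 0.12), Plk3 (-0.27 to 0.032), Polk (-0.23 to 0.027), Ppm1d (-0.086 to 0.29), Sesn1 (-0.62 to 0.036), Tnfrsf10b (-0.36 to 0.34) and Xpc (-0.21 to 0.15). Gdf15 also turned to -0.16 with a pseudocount of 4 and -0.052 and -0.0024 under quantile and median-of-ratios scaling, and Tnfrsf10b to -0.075 with a pseudocount of 0.1 and -0.0069 under quantile normalization. The cause of these changes was not tested.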
